A study of Mus musculus with 4 samples.

Results

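The proteasome subunit genes of the mouse were examined for Fos binding in colonic epithelium, profiled by CUT&Tag. In this assay an antibody brings the transposase Tn5 to the sites held by a protein, here Fos, and the enzyme tags the nearby DNA for sequencing. Fos pairs with Jun proteins to make the transcription factor AP-1. The genes were taken by symbol, as every protein-coding gene named Psma, Psmb, Psmc or Psmd followed by a digit, which gave 40 of 21631 protein-coding genes, all on autosomes or chromosome X. The 4 libraries, all from wild-type mice with the same batch label, were 2 of colitis recovered tissue and 2 of healthy controls. The recovered animals had drunk 1 to 1.5% dextran sodium sulfate (DSS), which injures the colonic epithelium, for 3 cycles of 7 days separated by 10 days without it, and their tissue was taken 22 days after the end of DSS. In all 4 the mucosa was scraped from colons soaked in EDTA, and the label of colonic epithelium could not be checked against expressed markers, since binding alone was measured.

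The values come from 1 list of 178981 Fos summits in 108406 regions that covers the series as a whole, placed on mm10, and the list gives no value for a single library. Recovered and healthy colon could therefore not be compared, no value has a replicate error, and the number of reads per library is unknown. A summit is the highest point of a peak, its fold enrichment is the authors' ratio over background, and its pileup is the number of overlapping fragments read from that ratio. All folds were whole multiples of the same value, so fold and pileup are the same measure on different scales. Neither is adjusted for background that differs between sites. The median summit of the list had a fold enrichment of 6.73 and 27 fragments. Intervals on pileups are exact 95% Poisson intervals and those on shares 95% Wilson intervals. Both cover counting error only. No library made without the Fos antibody was used here, and the part of the signal that comes from open chromatin cut without Fos was not tested.

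The proteasome is the cell's main protease for ubiquitin-tagged proteins. Its barrel-shaped core particle is built of alpha subunits, encoded by Psma genes, which form the outer rings and the gate, and beta subunits, encoded by Psmb genes, which form the inner rings. Psmb5, Psmb6 and Psmb7 encode the proteolytic beta subunits. Under interferon-gamma they are replaced in newly built particles by the products of Psmb8, Psmb9 and Psmb10, and the resulting immunoproteasome shapes the peptides shown on MHC class I. The regulatory particle that caps the core holds the ATPases, encoded by Psmc genes, and non-ATPase subunits, encoded by Psmd genes, which recognise, unfold and strip ubiquitin from the substrate. When proteasome activity is short, the transcription factor encoded by Nfe2l1 raises subunit genes through antioxidant response elements, whose core letters TGACNNNGC resemble those of AP-1 sites.

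By role, the 40 genes fell into 3 immunoproteasome genes, 31 genes of constitutive subunits (7 Psma, 7 Psmb, 6 Psmc and 11 Psmd), 2 tissue-restricted genes, 3 assembly chaperones and 1 gene of no subunit. The tissue-restricted genes are Psma8, of the testis, and Psmb11, of the thymic cortex. The chaperones Psmd5, Psmd9 and Psmd10 help to build the regulatory particle and leave it. Psmc3ip takes its name from binding an ATPase subunit and acts in meiotic recombination. The genes lay on 16 chromosomes. RefSeq promoter windows on GRCm38.p6, the assembly that mm10 names, were found for 33 of the 40, and gave these genes a strand and 1 or more starts of transcription, called listed starts here.

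The promoter sequences below, each the 250 bases before a listed start and read 5′ to 3′ on the gene's strand, are from RefSeq on GRCm38.p6. They show the immunoproteasome genes beside the constitutive genes Psmb6 and Psmb5, then members with strong Fos signal (Psmb3 and Psmc6), the second start of Psma6, and the chaperone gene whose window before the start held an AP-1 match (Psmd9). Capitals mark matches, on either strand, to any of 7 motifs: AP-1 TGANTCA, the cyclic AMP response element TGACGTCA, the antioxidant response element TGACNNNGC, the NF-Y box CCAAT, the E-box CACGTG, the interferon response motif (GAAA, any pair of letters, GAAA) and the ETS letters CCGGAAGT.
Psmb9, chr17:34187331-34187580, minus strand: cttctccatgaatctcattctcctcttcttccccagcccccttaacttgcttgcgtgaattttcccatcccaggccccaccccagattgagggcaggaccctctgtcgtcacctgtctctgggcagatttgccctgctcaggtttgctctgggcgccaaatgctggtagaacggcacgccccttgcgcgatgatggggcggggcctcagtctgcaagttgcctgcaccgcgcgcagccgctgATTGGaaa
Psmb8, chr17:34197945-34198194, plus strand: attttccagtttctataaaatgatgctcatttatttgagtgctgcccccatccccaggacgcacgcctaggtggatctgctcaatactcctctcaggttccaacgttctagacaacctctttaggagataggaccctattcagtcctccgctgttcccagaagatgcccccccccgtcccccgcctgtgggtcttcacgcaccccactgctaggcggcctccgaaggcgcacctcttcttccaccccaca
Psmb10, chr8:105938393-105938642, minus strand: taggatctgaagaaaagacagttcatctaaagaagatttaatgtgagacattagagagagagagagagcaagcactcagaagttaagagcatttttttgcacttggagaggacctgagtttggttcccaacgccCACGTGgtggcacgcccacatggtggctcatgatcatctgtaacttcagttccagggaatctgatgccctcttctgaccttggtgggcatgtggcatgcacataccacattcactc
Psmb6, chr11:70525107-70525356, plus strand: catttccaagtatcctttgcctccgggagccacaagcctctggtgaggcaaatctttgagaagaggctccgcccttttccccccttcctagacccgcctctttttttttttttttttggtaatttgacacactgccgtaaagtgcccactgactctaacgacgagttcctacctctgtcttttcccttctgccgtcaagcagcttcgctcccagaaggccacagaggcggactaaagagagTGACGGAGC
Psmb5, chr14:54617996-54618245, minus strand: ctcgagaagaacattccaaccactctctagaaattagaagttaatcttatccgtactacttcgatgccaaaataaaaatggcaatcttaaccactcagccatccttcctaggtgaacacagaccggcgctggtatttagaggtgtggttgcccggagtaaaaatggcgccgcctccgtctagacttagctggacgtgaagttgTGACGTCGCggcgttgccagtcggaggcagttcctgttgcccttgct
Psmb3, chr11:97703184-97703433, plus strand: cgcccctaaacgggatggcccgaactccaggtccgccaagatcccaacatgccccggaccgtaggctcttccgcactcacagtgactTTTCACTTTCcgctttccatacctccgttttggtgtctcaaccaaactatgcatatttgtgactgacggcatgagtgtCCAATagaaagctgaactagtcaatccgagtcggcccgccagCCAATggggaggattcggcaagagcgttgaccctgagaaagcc
Psmc6, chr14:45329574-45329823, plus strand: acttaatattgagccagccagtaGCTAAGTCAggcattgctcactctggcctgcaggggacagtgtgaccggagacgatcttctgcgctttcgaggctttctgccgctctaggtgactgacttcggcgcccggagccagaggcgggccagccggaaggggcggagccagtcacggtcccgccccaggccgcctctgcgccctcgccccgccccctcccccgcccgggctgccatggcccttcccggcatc
Psma6, chr12:55398575-55398824, plus strand: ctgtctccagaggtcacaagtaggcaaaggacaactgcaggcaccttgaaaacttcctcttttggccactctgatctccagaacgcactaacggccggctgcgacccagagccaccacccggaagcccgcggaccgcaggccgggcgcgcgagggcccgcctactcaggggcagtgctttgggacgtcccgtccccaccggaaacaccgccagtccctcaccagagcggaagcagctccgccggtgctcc
Psmd9, chr5:123227940-123228189, plus strand: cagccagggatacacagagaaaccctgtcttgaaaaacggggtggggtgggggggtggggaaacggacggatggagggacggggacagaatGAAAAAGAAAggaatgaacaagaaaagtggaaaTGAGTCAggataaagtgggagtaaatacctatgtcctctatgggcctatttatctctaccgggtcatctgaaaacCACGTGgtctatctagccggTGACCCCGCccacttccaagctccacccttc

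The strongest summits of Psmb9, 187 bp upstream, and of Psmb3, 130 bp upstream, fall inside the sequences shown, whereas that of Psmb8, 387 bp upstream, lies beyond them. AP-1 letters were not shown to be rarer or more frequent at the proteasome genes than at genes in general. The windows held 300 bases, from 250 before to 50 after a listed start. TGANTCA was found at 8.19% of the 17274 protein-coding genes with a window, and at 6.34% of those with a summit at a listed start. Among the proteasome genes it was found at 2 of 33 (6.06%, Wilson interval 1.68 to 19.6). The genes were Psmd9, with TGAGTCA at 126 bases before its start, and Psmb5, with TGAATCA at 41 bases after it, on chr14:54617946-54617970, minus strand:
Psmb5 site: cagcggccgatgccggTGAATCAgc
The antioxidant response element was matched at 5 of 33 genes (15.2%, 6.65 to 30.9), against 14.9% of all genes. The matches stood 47 bases before the start of Psmb5, 9 before that of Psmb6, 31 before that of Psmd9, 227 before that of Psmc6 and 247 before that of Psmd12. TGACGTCA was found at 0 of 33 genes, against 2.58% of all genes. Each share for the 33 genes holds the share of all genes within its interval.

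Of the other motifs, the ETS letters were found at a larger share of proteasome genes than of all genes, with no test made. CCAAT was present at 14 of 33 genes (42.4%, 27.2 to 59.2), against 42.7% of all genes, and CACGTG at 3 of 33 (9.09%, 3.14 to 23.6), against 9.02%. CCGGAAGT, the letters bound by ETS factors such as GABP, was present at 6 of 33 (18.2%, 8.61 to 34.4), against 5.76% of all genes, which lies outside that interval, and 8.64% of those with a summit at a listed start, just inside it. The 6 genes were Psma6, Psmc1, Psmc2, Psmd6, Psmd12 and Psmd13. In Psma6 the match began 16 bases after the second listed start, at the base of the summit there. The interferon response motif was found at Psmb3, Psmd4 and Psmd9, against 3.98% of all genes, and at none of the immunoproteasome genes. A match is a description of letters and not a site of binding, and the windows cover only the nearest bases.

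Fos summits were found at the ends of 37 of the 40 genes (92.5%, 80.1 to 97.4), against 62.0% of all protein-coding genes. A summit was counted there, as a boundary summit, within 1 kb of either end of the gene. The genes without one were Psma6, Psma8 and Psmb11. All 3 immunoproteasome genes had a boundary summit, as did 30 of the 31 constitutive genes (96.8%, 83.8 to 99.4). Sets of other housekeeping complexes, taken by symbol, were close by, with 76 of 80 ribosomal protein genes (95%, 87.8 to 98.0) and 46 of 52 genes of respiratory complexes I and IV (88.5%, 77.0 to 94.6). The share of the proteasome genes is therefore not shown to be particular to them.

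The strength of these summits was ordinary for genes that had one. The highest boundary fold of a member had a median of 31.5 over the 37 genes (quartiles 18.3 and 44.7), against 27.4 over the 13405 genes with a boundary summit (quartiles 11.3 and 55.6). It was above that median in 21 of the 37 and above the 90th percentile in 0. The members ran from a fold of 5.05 at Psmb10 to 86.6 at Psmb3, which stood at percentile 87.4. The corresponding medians were 32.4 for ribosomal protein genes and 28.1 for complexes I and IV.

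**Figure D1:**
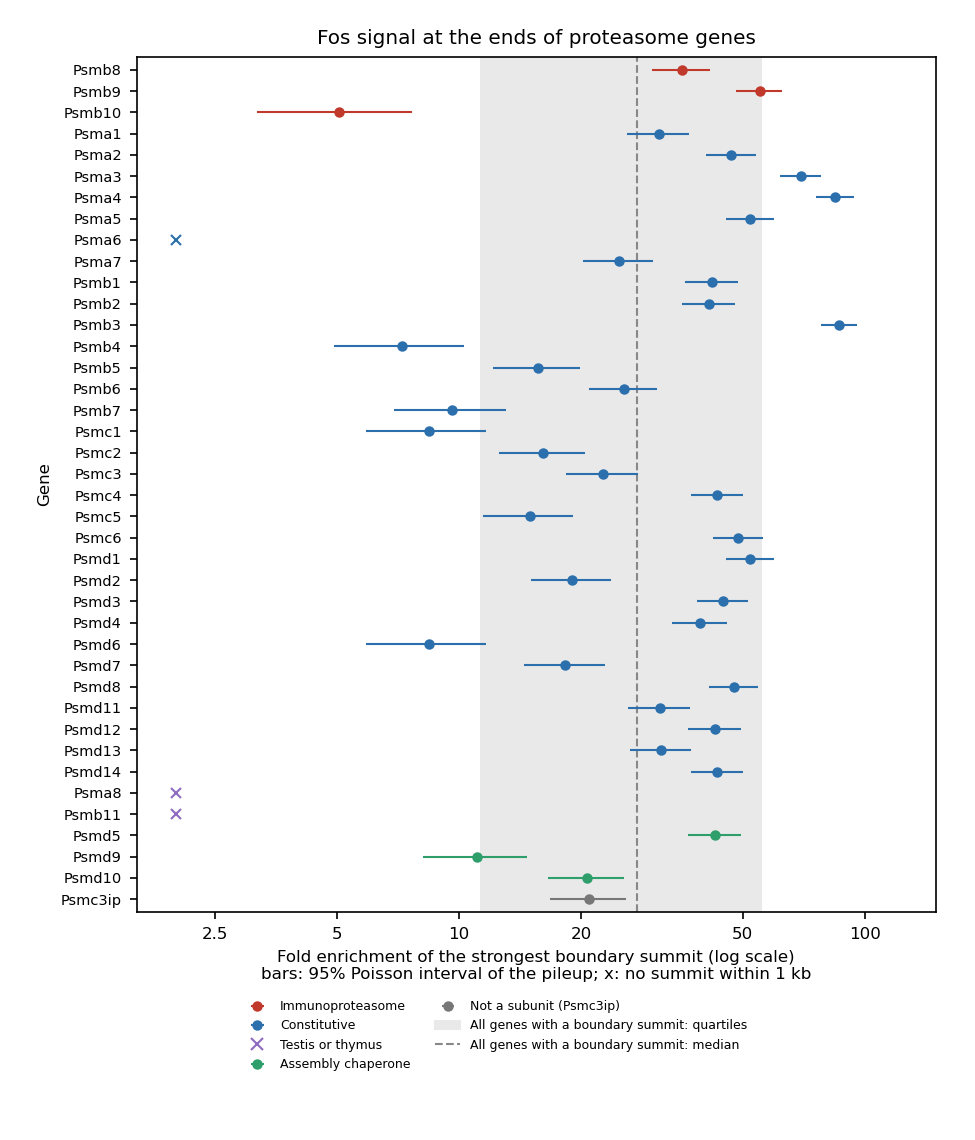
Fold enrichment of the strongest Fos summit within 1 kb of either end of each of the 40 genes, on a log scale, with 95% Poisson intervals of the pileup; crosses mark genes with none, and the band and dashed line give the quartiles and median of all genes with a boundary summit. Most genes lie inside the band of 11.3 to 55.6, with Psma3, Psma4 and Psmb3 above it, Psmb10, Psmb4, Psmb7, Psmc1, Psmd6 and Psmd9 below it, and Psma6, Psma8 and Psmb11 without a summit.

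The summits lay at the starts of transcription rather than at the ends. Of the 33 genes with a listed start, 32 had a summit within 1 kb of one (97.0%, 84.7 to 99.5), against 62.2% of the 17274 such genes. The share was 96.7% for ribosomal protein genes and 95.6% for complexes I and IV, so it is not shown to be particular to proteasome genes. Within 1 kb of the end of transcription a summit was present at 6 of 33 (18.2%, 8.61 to 34.4), against 17.5% of all genes. The strongest start summit lay within 200 bp of the start in 29 of the 32 genes (90.6%), against 70.2% of the 10752 genes with a start summit. It was upstream of the start in 18 and at or after it in 14, with a median distance of 102.5 bp against 128 bp over all genes. The exceptions beyond 200 bp were Psmb8, 387 bp upstream, Psmd13, 371 bp upstream, and the X-linked Psmd10, 203 bp upstream.

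**Figure D2:**
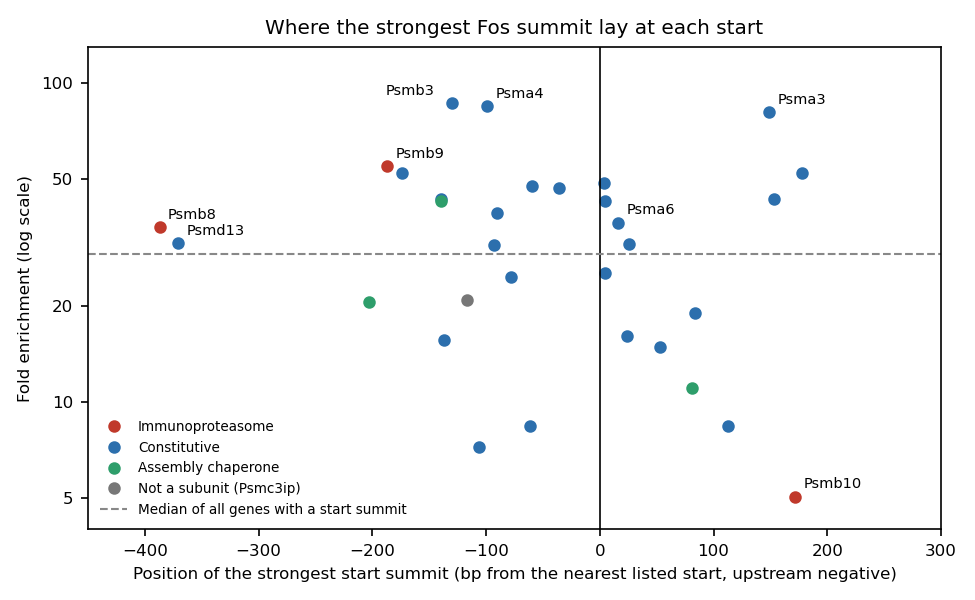
Position of the strongest Fos summit within 1 kb of a listed start, in bp from that start with upstream negative, against its fold enrichment on a log scale, for the 32 proteasome genes with such a summit; the dashed line is the median of all genes with a start summit, 29.1. The points gather between 203 bp upstream and 178 bp downstream, with Psmb8 and Psmd13 farther upstream and Psmb10 lowest.

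The boundary summits of the 3 immunoproteasome genes differed widely in strength. At Psmb9 the boundary fold was 55.1, from 228 fragments (199 to 260), and at Psmb8 it was 35.4, from 146 fragments (123 to 172). Psmb10 had a fold of 5.05 with only 20 fragments (12 to 31), the lowest of the 37 genes. Psmb10 also lost its boundary summit when a −log10 q of at least 10 was required.

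Each was set beside the constitutive subunit that it replaces. Psmb9 had 228 fragments, against 105 (86 to 127) at Psmb6, and Psmb8 had 146, against 64 (49 to 82) at Psmb5. The intervals did not overlap in either pair, and the summit at the immunoproteasome gene was the higher. How often the intervals of 2 genes in general do not overlap was not computed, so this describes these pairs only. The summit counted for Psmb9 is shared with its neighbour Tap1, and that counted for Psmb8 also lay within 1 kb of the end of Tap1. Neither of these pairs therefore compares 2 genes alone. For Psmb10 the order was the other way, with 20 fragments (12 to 31) against 39 (28 to 53) at Psmb7, and these intervals overlapped. All 3 constitutive genes were below the median fold of genes with a boundary summit, at 25.5 for Psmb6, 15.6 for Psmb5 and 9.62 for Psmb7. With 3 genes a side, 2 of them neighbours, no difference between the groups was tested.

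Psmb9 and Psmb8 share the class II region of the MHC on chromosome 17 with Tap1 and Tap2, which encode the peptide transporter of antigen presentation. Psmb9 (34182030 to 34187330) and Tap1 (34187556 to 34197225) start 226 bp apart on opposite strands. The summit of fold 55.1 at 34187517 lay between them, 187 bp upstream of the Psmb9 start and 39 bp upstream of the Tap1 start, so it cannot be given to either gene. A summit of fold 29.1 with 120 fragments followed at 34187856, inside Tap1. The summit of fold 35.4 at 34197808 lay between the end of Tap1 and the start of Psmb8 (34198195 to 34201454). The windows of Psmb8 and Psmb9 shared 20 summits, which is 95.2% of the 21 of Psmb8 and 69.0% of the 29 of Psmb9, so the genes are not independent. At Tap2 the highest boundary fold was 6.73. The strongest summit in the window of Psmb9 had a fold of 64.5 and 267 fragments (236 to 301). It lay 46447 bp below Psmb9 and 3518 bp from an end of H2-DMa.

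**Figure D3:**
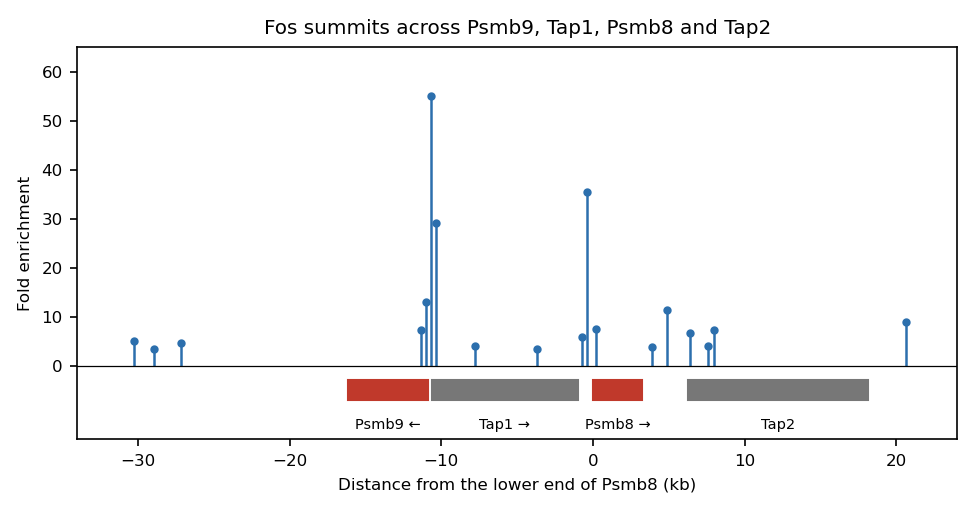
Fold enrichment of each Fos summit (stems) around the immunoproteasome genes Psmb9 and Psmb8 (red bars) and the transporter genes Tap1 and Tap2 (gray bars), by distance from the lower end of Psmb8 in kb; arrows give the strand where it was listed. The tallest stems shown stand between Psmb9 and Tap1 (fold 55.1) and just before Psmb8 (fold 35.4). Summits of fold 64.5 and 43.5 near H2-DMa, in the window of Psmb9, lie outside the range plotted.

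Psmb10 lies apart from these genes, on chromosome 8 (105935728 to 105938392). Its start carried summits of fold 5.05 at 172 bp downstream and 3.37 at 55 bp upstream, while a stronger one, of fold 15.6 with 64 fragments (49 to 82), lay 1210 bp downstream of the start, inside the gene. The strongest summit of its window had a fold of 93.1 and 386 fragments (348 to 426) at 105959661. It lay 21269 bp above the gene, 6488 bp from the nearest gene end, that of Slc12a4. Only distance links it to Psmb10.

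Among the alpha subunits, which form the gate of the core, Psma4 had the highest boundary fold, 84.7 with 351 fragments (315 to 390). Psma3 had 69.8 with 289 fragments (257 to 324), and Psma5 52.2 with 216 (188 to 247). Psma2 followed with 46.9, Psma1 with 31.0 and Psma7 with 24.8. The constitutive Psma genes with a boundary summit had a median of 49.5, against 25.5 for the constitutive Psmb genes, 19.4 for Psmc and 39.2 for Psmd. With 6 to 11 genes in each family and wide ranges, these medians are descriptions.

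Psma6, the alpha subunit gene without a boundary summit, had a strong one at a start inside its annotated span. The gene table places Psma6 on chromosome 12 from 55384222 to 55418459, and RefSeq lists starts at 55384222 and 55398825. No summit lay within 1 kb of the first. At the second, whose promoter is shown above, a summit at 55398841, 16 bp downstream, had a fold of 36.6 and 151 fragments (128 to 177). By listed starts, all 25 constitutive genes that had one carried a Fos summit there, against 62.2% of all genes with a listed start.

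Psma3 and Psmd2 differed in the same way between the gene's end and its listed start. The boundary summit of Psma3 (chromosome 12, 70969283 to 70995877) lay 985 bp below its lower end, while its listed start is 70974623. A stronger summit, of fold 81.3 with 337 fragments (302 to 375), stood 149 bp downstream of that start. In Psmd2, which encodes a scaffold of the regulatory particle, the boundary summit of fold 19.0 lay 614 bp inside the gene and 84 bp downstream of the listed start.

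**Figure D4:**
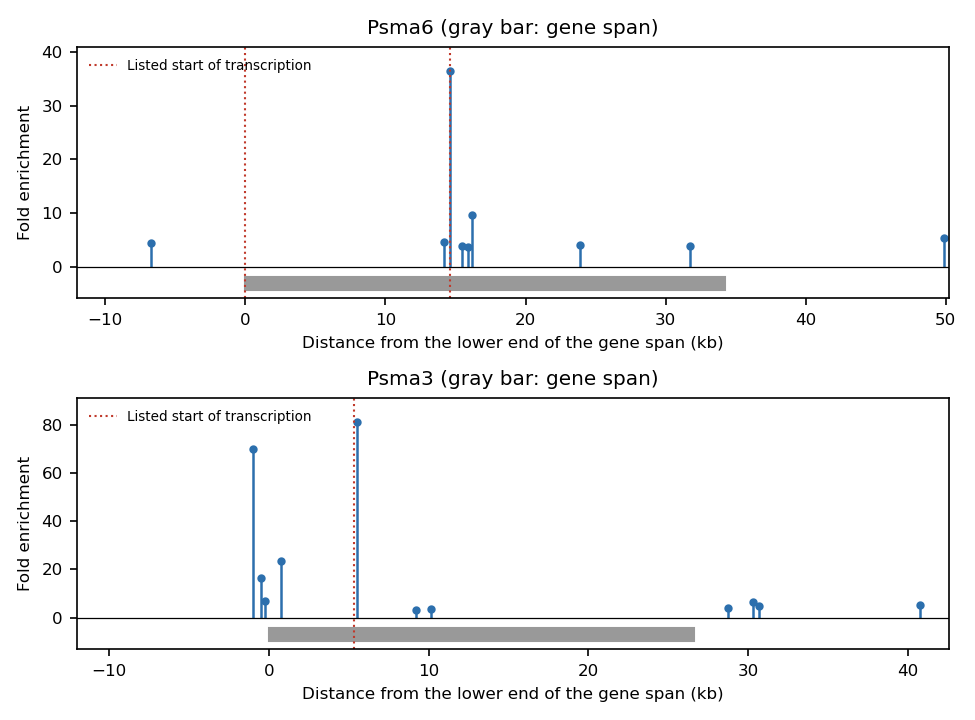
Fold enrichment of Fos summits (stems) across Psma6 and Psma3 by distance from the lower end of the gene span in kb, with the span as a gray bar and listed starts of transcription as dotted lines. The summit of fold 36.6 in Psma6 and that of fold 81.3 in Psma3 stand at listed starts inside the spans.

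The beta subunit genes held both the strongest and some of the weakest boundary summits. Psmb3, a structural subunit, had 359 fragments (323 to 398) at 130 bp upstream of its start, on chromosome 11 from 97703434. Its interval overlapped that of Psma4, so the order of the top pair is not settled. Psmb1 and Psmb2, also structural, had folds of 42.1 and 41.4. Psmb4, another structural subunit, had a fold of 7.22 with 29 fragments (19 to 42), the lowest of the constitutive genes, and its interval overlapped that of Psmb7.

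The 2 tissue-restricted genes had no listed summit within 1 kb of their ends, as was true of 8226 of the 21631 protein-coding genes. Signal too weak to be called is not in the list. Psmb11 (chromosome 14, 54625310 to 54629556) had 17 summits in its window and 0 within 1 kb of an end. It lies 7315 bp from Psmb5, which is used in all tissues, and all 17 of its summits were also in the window of Psmb5. The nearest on the side of Psmb5 was that gene's own start summit, of fold 15.6. Psma8, on chromosome 18, had 12 summits in its window and 0 at its ends, and the strongest, of fold 60.4, lay 28 bp from an end of Taf4b. No start was listed for Psma8, so a start inside its span could not be checked.

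Of the ATPase genes, Psmc6 had the highest fold, 48.8 with 202 fragments (175 to 232), at 4 bp downstream of its start. Psmc4 had 43.3 with 179 (154 to 207). The others were lower, with 22.6 at Psmc3, 16.1 at Psmc2, 14.9 at Psmc5 and 8.42 at Psmc1, where 34 fragments were counted (24 to 48). The intervals of Psmc6 and Psmc4 overlapped, and both stood clear of the other 4. The share of gene pairs in general with intervals that do not overlap was not computed.

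Among the non-ATPase subunits, the scaffold gene Psmd1 had a fold of 52.2 with 216 fragments (188 to 247), the lid subunit gene Psmd8 47.6 with 197 (170 to 227) and Psmd3, also of the lid, 44.7 with 185 (159 to 214). Psmd14, the deubiquitinase of the lid, had 43.3, Psmd12 42.8 and Psmd4, a ubiquitin receptor, 39.2. Psmd13 and Psmd11 had 31.5 and 31.3, and Psmd2 and Psmd7 19.0 and 18.3. Psmd6 was lowest, with a fold of 8.42 and 34 fragments (24 to 48). The chaperone genes had folds of 42.8 at Psmd5, 20.7 at Psmd10 and 11.1 at Psmd9, and Psmc3ip had 20.9.

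Some starts are shared with another gene, and their summits cannot be assigned to one of the pair. Starts within 1 kb of a neighbour's start were listed for 5 of the 33 genes with a listed start. A pair could be counted only where both genes had a listed start. These were Psma2 with Mrpl32, 205 bp apart, Psma7 with Ss18l1 (19 bp), Psmb9 with Tap1, Psmc5 with Ftsj3 (101 bp) and Psmd13 with Sirt3 (85 bp). An end of Dnajc2, which had no listed start, lay 11 bp from the end of Psmc2 at its first listed start, so that pair was not counted. The same held for Psma4, where the 2 ends of AY074887, also without a listed start, lay 537 and 173 bp from its lower end. An end of Pcgf2 lay 1000 bp from the lower end of Psmb3, with no start of Pcgf2 listed within 1 kb of the Psmb3 start. The boundary summits of Psma4 and Psmb3 therefore also cannot be given to those genes alone. Some end of another protein-coding gene lay within 1 kb in 13 of 40 genes. The shares of all protein-coding genes for these counts were not computed.

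Away from gene ends, proteasome genes had summit counts close to those of genes in general. Distal summits, at no gene's ends and inside the gene or within 50 kb, had a median of 12 per gene over the 40 (quartiles 5.75 and 19), against 10 over all genes (quartiles 2 and 21), and 23 of the 40 were above that value. The immunoproteasome genes had 17 at Psmb9, 11 at Psmb8 and 10 at Psmb10 (median 11), against a median of 14 over the constitutive genes. This order depended on the settings, with medians of 6 for immunoproteasome against 4 for constitutive genes in windows of 20 kb, 43 against 21 in windows of 100 kb, and 10 against 8 with 1 summit per region. The windows of the members held a median of 3 other protein-coding genes, as did those of all genes. That median was 6 for the immunoproteasome genes and 3 for the constitutive genes, whose median lengths were 3260 and 12432 bp. The distal counts of these groups therefore come from windows of unlike gene content and length. Ribosomal protein genes had a median of 11 distal summits and complexes I and IV 9.5.

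Counts varied widely between members. Psma6 had the most distal summits, 33, followed by Psma5 with 26, Psmd13 with 25, Psma7 with 24 and Psmd4 with 23. In Psma6 these include the summits at its inner start. Others stand between Psma6 and Nfkbia, which encodes an inhibitor of NF-κB, with folds of 85.9 at 24910 bp and 81.5 at 41495 bp above Psma6. In the Psmb family Psmb3 had 20, Psmb4 19, and Psmb7 and Psmb9 17 each. Psmc3ip had 20, Psmc6 18 and Psmc5 10, and Psmd1 and Psmd5 had 20 each. Psma2 had 0 and Psmb1 1, although their boundary folds were 46.9 and 42.1, so these genes had a boundary summit above the all-gene median and few or no distal ones.

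**Figure D5:**
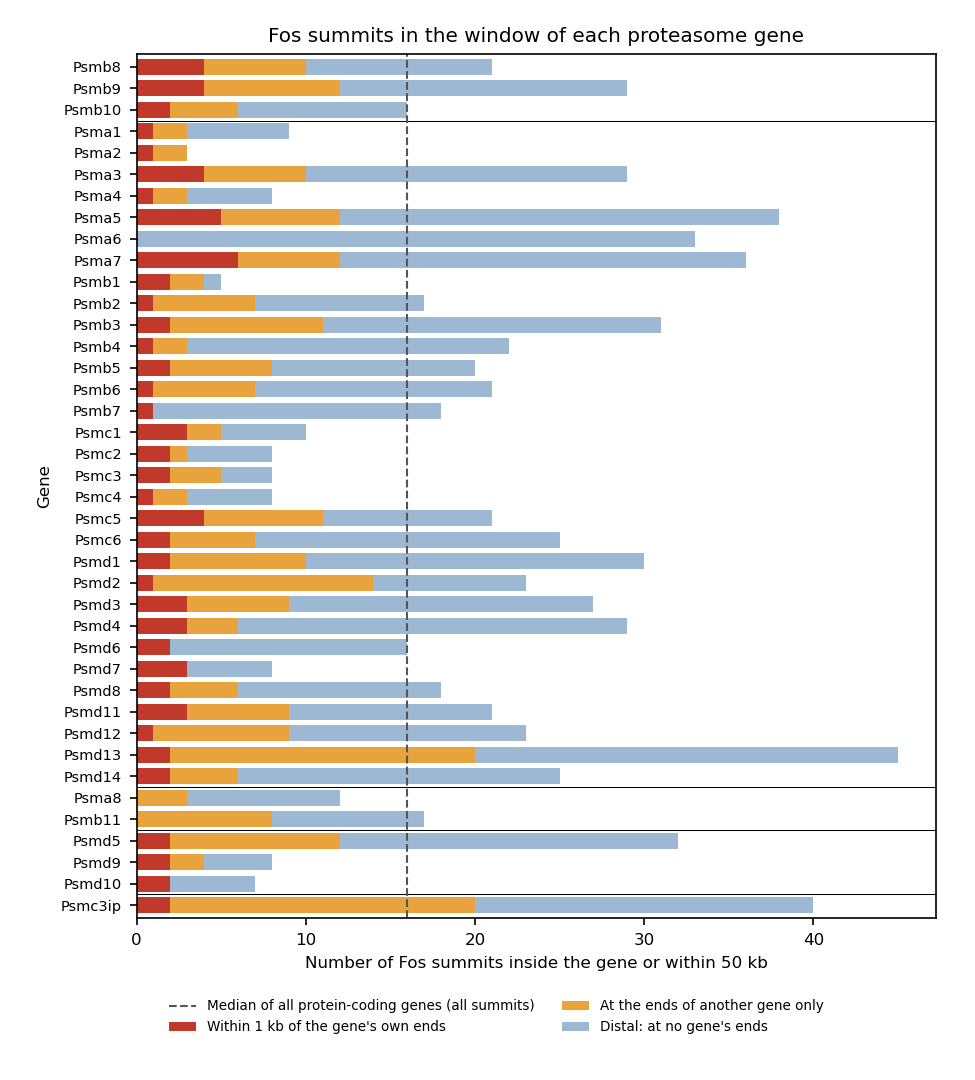
Number of Fos summits inside each gene or within 50 kb, parted into summits at the gene's own ends, at another gene's ends only, and distal ones; horizontal lines part the classes, from the immunoproteasome genes at the top to Psmc3ip at the bottom, and the dashed line is the median of all protein-coding genes, 16. Psmd13 has 45 summits and Psma2 has 3.

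By distance, the average number of summits at proteasome genes was above that of all genes nearest the starts and beyond 5 kb. Within 250 bp of a listed start, the 33 genes averaged 1.18 summits, and 32 of them had at least 1, against 0.731 summits and 56.5% over all genes with a listed start. From 250 to 1000 bp the average was 0.818 for proteasome genes and 0.838 for all genes. From 1 to 5 kb it was 1.00 for proteasome genes and 1.56 for all genes, and from 5 to 20 kb 4.58 for proteasome genes and 4.16 for all genes. From 20 to 50 kb it was 10.3 for proteasome genes and 8.08 for all genes. The share of genes with at least 1 summit was higher for proteasome genes in each of these bins too. It was 51.5% against 47.0% from 250 to 1000 bp and 57.6% against 49.5% from 1 to 5 kb. Farther out it was 84.8% against 66.4% from 5 to 20 kb and 97.0% against 77.5% from 20 to 50 kb. The ribosomal protein and respiratory complex genes were not profiled in this way.

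The strongest summit in the window lay at the gene's own ends in 7 of 40 proteasome genes (17.5%), against 16.4% of all genes. It lay within 1 kb of another gene's end in 18, and elsewhere in 15. A fold of 100 or more was reached in the windows of 8 genes (20%), against 26.8% of all genes. Near Psmd4 a summit of fold 266.8 with 1108 fragments (1044 to 1175) lay 16999 bp below the gene, 259 bp from an end of Zfp687. Near Psma3 one of fold 150.3 lay 750 bp from an end of Arid4a, and those of Psmc5 (114.0), Psmc6 (108.2) and Psmb3 (100.3) were also within 1 kb of the ends of other genes.

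The other 3 were distal. Above the chaperone gene Psmd5 a summit of fold 251.8 with 1046 fragments (984 to 1111) stood at 34905189 on chromosome 2, 34224 bp above the gene and 9164 bp from Phf19. Near Psmd1 a summit of fold 128.0 lay 39883 bp above the gene, and near Psmd8 one of the same fold lay 27300 bp below it. These summits exceed the boundary summits of the genes themselves, at 42.8, 52.2 and 47.6, and which gene they act on was not tested.

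Genes that build, adjust or control the proteasome were examined in the same way, in a list that also held Tap1 and Tap2. Of the 33 genes listed, 32 were matched and Paaf1 was not analysed here. Of the 32, 30 had a boundary summit (93.8%, 79.9 to 98.3), against 62.0% of all protein-coding genes. Their median highest fold was 34.5, against 27.4 for all genes with a boundary summit. Tap1 and Tap2, listed as neighbours of Psmb8 and Psmb9 only, are counted in these values. The summit counted for Tap1, of fold 55.1, is the one already counted for Psmb9. Psmf1, a proteasome inhibitor, and Ecpas, which tethers the parts of the proteasome, had none at their ends but had summits of fold 12.5 and 12.3 at listed starts, 113 and 105 bp upstream. The strongest was at Psme2, with a fold of 179.0 and 743 fragments (691 to 798) at 98 bp upstream of a listed start. An end of Rnf31 lies 612 bp from Psme2, so this summit cannot be given to Psme2 alone. Psme2 encodes a subunit of the interferon-induced activator, while Psme1, the gene of its partner subunit, had 16.4 with 67 fragments (52 to 85).

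The 5 genes that control subunit genes or the processing of their regulator had a median boundary fold of 80.1, and 4 of the 5 were above the all-gene median of 27.4. These genes were listed with earlier results of these data known. Nfe2l1, Vcp, Ngly1 and Akirin2 were named after their values were seen, so these values are descriptions only. Nfe2l2, which encodes NRF2, had 135.4 with 562 fragments. Nfe2l1, whose product raises subunit genes, had 125.3 with 520 fragments (476 to 567), at 246 bp upstream of a listed start. Vcp, the segregase that draws proteins out of complexes for degradation, had 80.1, Ngly1 had 64.0 and Akirin2, which brings proteasomes into the nucleus, had 21.2. Ends of other genes lay near 2 of these, Oxsm at 494 bp from Ngly1 and Orc3 at 184 bp from Akirin2. Outside these 5, Zfand5, whose product stimulates the proteasome, had 128.9 with 535 fragments. An end of LOC115489044 lay 328 bp from an end of Zfand5, so this summit may not belong to Zfand5 alone. The shuttle factor gene Rad23b had 94.5, with an interval of 354 to 433 fragments. Of the 32 related genes, Psme2, Nfe2l2, Zfand5, Nfe2l1 and Rad23b exceeded the highest boundary fold of the 40 genes, 86.6 at Psmb3, although the interval of Rad23b overlapped that of Psmb3 (323 to 398). The 5 assembly chaperones had a median of 21.9, and the 6 shuttle factors, which carry ubiquitin-tagged proteins to the proteasome, 33.7. The median was 16.6 over the 4 activator and inhibitor genes with a boundary summit, and 1 of these was above the all-gene median. Over the 8 other subunit and bound-enzyme genes with a boundary summit it was 48.5.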

How the data were processed

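Fos CUT&Tag reads were aligned with Bowtie2 and peaks called with MACS2 on mm10, per the submitters' processing notes. Versions, parameters and which libraries entered the single deposited peak list are not given in the sources used here. For each summit the authors' list holds a fold enrichment over background, −log10 p- and q-values and a display score. Score and −log10 p were not used. All deposited fold values were whole multiples of 0.241, within 0.05 of a multiple, so the pileup was read as fold divided by this value, less 1. PCR copies were not separable, so pileups are not counts of independent molecules.

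Genes came from the RefSeq table of GRCm38.p6. A boundary summit lies within 1 kb of either gene end. Windows reach 50 kb. Distal summits lie at no protein-coding gene's ends. Computation used Python 3.11.15 with pandas 2.3.3, numpy 2.4.6 and scipy 1.17.1, and was tested on simulated data. No p-value is given, since the list has no value per library. Alternatives changed the q threshold, window, distance, summits per region and neighbouring genes.

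The genes and lists were chosen with earlier results of these data known. Genes to be named by rule were the immunoproteasome genes and their counterparts, the tissue-restricted genes, members without a boundary summit, the 3 highest of each family by boundary fold and by distal count and, of the related genes, those without a boundary summit and the 3 highest. The other members are given for completeness, and Psme1, Nfe2l1, Rad23b, Vcp, Ngly1, Akirin2 and Tap2 were named after their values were seen.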

Additional observations from a re-analysis of the deposited data

How the results depend on the processing

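Over all 40 genes the share with a boundary summit ran from 90 to 92.5% under the alternatives run, against 55.6 to 66.4% of all protein-coding genes. It was 97.0% of the 33 genes with a listed start, against 62.2% of all genes with one. The median highest boundary fold ran from 31.4 to 39.2, the highest over the 22 genes with no other gene's end within 2000 bp. The share of constitutive genes was 100% by listed starts alone (25 of 25), against 62.2% of all genes with a listed start. It was also 100% among genes with no other gene's end within 2000 bp (19 of 19). The share of all genes under that filter was not computed. The filter on neighbours left no immunoproteasome gene. The median number of distal summits over the 40 genes was 6.5 at a −log10 q of at least 10 (all genes 5), 8 with 1 summit per region (7), 4.5 in windows of 20 kb (5) and 24 in windows of 100 kb (19). For constitutive genes these distal medians were 7, 8, 4 and 21. For immunoproteasome genes they were 9 at a −log10 q of at least 5, 5 at 10, 10 with 1 summit per region, 6 in 20 kb and 43 in 100 kb. At a −log10 q of at least 10, 2 of 3 immunoproteasome genes (66.7%) kept a boundary summit, against 55.6% of all genes with one at that threshold. Psmd2 loses its boundary summit at 500 bp. No paired analysis was possible because the list has no value per library, and leaving out a library was impossible for the same reason. Library depth is unknown.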
